A study of Homo sapiens with 6 samples.

Results

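The unfolded protein response (UPR) and the integrated stress response (ISR) were described through 42 genes, which are sensors, transcription factors, endoplasmic reticulum (ER) chaperones, ER-associated degradation (ERAD) factors and targets of the transcription factor ATF4. The genes were chosen by name and not by a rule on their values, although earlier results of these data were known. The deposited table lists 74852 genes, and 41 of the 42 members were found by symbol. ERO1LB was found through a RefSeq synonym, since the table carries it as ERO1B. All 42 members passed the filter on low values, with means from 163 to 159663 normalized counts. The cells were MDA-MB-231, a human triple-negative breast cancer cell line with mesenchymal features. They were transfected 2 times with a pool of siRNAs against the kinase NEK2 (si-NEK2) or with a pool of non-targeting siRNAs (si-CTRL), and polyA-enriched RNA was sequenced in 3 libraries per group. The sample records give the harvest at 24 h after the second transfection, and the study's methods count it otherwise. The records do not say whether both groups were prepared together, so that a batch of preparation and the silencing cannot be told apart.

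When unfolded proteins load the ER, 3 membrane sensors respond. ERN1 (IRE1) splices the XBP1 transcript, ATF6 is cut to release a transcription factor, and EIF2AK3 (PERK) phosphorylates eIF2alpha. XBP1 and ATF6 switch on chaperones and ERAD factors, whereas phosphorylated eIF2alpha slows most translation but favours that of ATF4. Other kinases feed into the same eIF2alpha step, which makes ATF4 targets such as amino acid enzymes, transporters and tRNA synthetases a shared output of ER stress, amino acid shortage and other stresses. In secretory and fast growing tumour cells these genes are also expressed without an added stress.

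Response elements in the promoters of the members are shown because they are what the branches of the pathway act through. RefSeq promoters (GRCh38.p14, from 250 bases before to 50 after an annotated start) were at hand for 38 of the 42 members, all but PDIA3, PSPH, SHMT2 and GARS. The ER stress response element (ERSE), searched as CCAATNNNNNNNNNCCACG on both strands, was present in 8 members (21.1%), and in 25 of 27305 genes with a promoter (0.0916%). In the following windows, 5′ to 3′ on the strand of the gene, the capitals mark the element in either orientation.

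HSPA5, chr9:125241386-125241414, minus strand: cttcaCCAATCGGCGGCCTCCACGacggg

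XBP1, chr22:28800598-28800626, minus strand: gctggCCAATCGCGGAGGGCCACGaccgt

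PDIA6, chr2:10812848-10812876, minus strand: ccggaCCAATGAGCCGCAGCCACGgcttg

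HSP90B1, chr12:103930211-103930239, plus strand: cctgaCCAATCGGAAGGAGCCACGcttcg

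HSP90B1, chr12:103930316-103930344, plus strand: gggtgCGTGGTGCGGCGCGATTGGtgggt

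ERO1LB, chr1:236282178-236282206, minus strand: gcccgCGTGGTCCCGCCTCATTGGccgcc

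The other 3 members with an ERSE were CALR, CANX and CRELD2. The second form of the element, ERSE-II, was searched as ATTGGNCCACG and was present in 3 members (7.89%) against 19 genes with a promoter (0.0696%). These were HERPUD1, HYOU1 and SDF2L1, of which HYOU1 held it at 2 places and HERPUD1 is shown.

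HERPUD1, chr16:56932016-56932044, plus strand: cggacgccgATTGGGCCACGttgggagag

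The short XBP1 element TGACGTGG was found in 1 member, HYOU1, where it overlaps an ERSE-II, and in 253 genes (0.927%). The composite element bound by ATF4 with C/EBP factors, searched as TGATGNAA and here called CARE, was present in 5 members (13.2%), and in 1217 genes (4.46%).

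ASNS, chr7:97872458-97872487, minus strand: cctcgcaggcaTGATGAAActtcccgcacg

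CHAC1, chr15:40953251-40953280, plus strand: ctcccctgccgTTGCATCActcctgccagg

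AARS, chr16:70289675-70289704, minus strand: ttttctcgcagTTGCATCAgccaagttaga

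HERPUD1, chr16:56931955-56931984, plus strand: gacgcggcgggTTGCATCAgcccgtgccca

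CEBPG, chr19:33374060-33374089, plus strand: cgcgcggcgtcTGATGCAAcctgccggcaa

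HERPUD1 thus carries both an ERSE-II and a CARE. The CCAAT box, which is part of ERSE and ERSE-II, was present in 31 members (81.6%) and in 10846 genes (39.7%). A match is a description of these letters, and their absence from a window does not bear on binding elsewhere.

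Reads assigned to genes came to between 52625492 and 87454509 per library, so that 1 read was worth between 0.818 and 1.25 normalized counts. Members had between 112 and 193049 reads in a library. The mesenchymal marker VIM had between 134282 and 173162 normalized counts, and CDH1, EPCAM, ESR1 and PGR had at most 6, 14, 16 and 2 reads in any library, whereas ERBB2 was at 2455 to 4085 normalized counts. NEK2 itself was lower in each si-NEK2 library (log2 fold change -3.32, standard error 0.12, adjusted p = 1.86e-06). The first principal component (61.7% of the variance) separated the groups, and the second (16.2%) separated si-CTRL replicate 1 from the other si-CTRL libraries. The records do not state that the replicates were separate cultures, so that the p-values measure the spread between these libraries, which may be technical in part.

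The members did not move as a block. Regulated genes were those that changed 1.5-fold or more with an unadjusted p-value of 0.05 or less, and 8 members (19.0%) were regulated, 2 higher and 6 lower in si-NEK2 cells. Over all 18717 genes tested these calls took in 22.5%, with 8.23% higher and 14.3% lower. Among the 12500 genes tested at or above the level of the lowest member they took in 19.0% (7.97% higher, 11.0% lower). At an adjusted p of at most 0.05 and any size of change, which is what rose and fell mean here, 9 members rose, 15 fell and 18 did not pass. This share of 57.1% stands beside 43.1% of all genes tested (21.8% higher, 21.3% lower) and 51.6% of those at the members' level (29.0% higher, 22.6% lower). The median log2 fold change was -0.11 over the members, 0.01 over all genes tested and 0.06 over those at the members' level. Groups did not overlap for 25 members (59.5%), 9 higher and 16 lower, against 55.0% of all genes tested and 62.9% of those at the members' level.

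By role, the 19 genes of ER folding and ERAD split evenly, with 4 that rose and 4 that fell and a median of -0.01. This share of 42.1% is near the 43.1% of all genes tested and below the 51.6% at the members' level. The split became 2 and 5 with upper quartile scaling, 2 and 6 with equal totals and 1 and 6 with quantile normalization. Of the 15 targets of ATF4 3 rose and 9 fell (80% in all), with a median of -0.37. Under each of these scalings 2 rose and 9 fell. Changes were mostly small, since 34 of the 42 members stayed within a 1.5-fold change, 16 of them with an adjusted p of at most 0.05. Over all members the 9 higher and 15 lower became 6 and 16 with upper quartile scaling, 6 and 17 with equal totals and 5 and 17 with quantile normalization. Equal totals moved the median of all genes to -0.12. The plot of all members by library shows these values side by side.

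**Figure D1:**
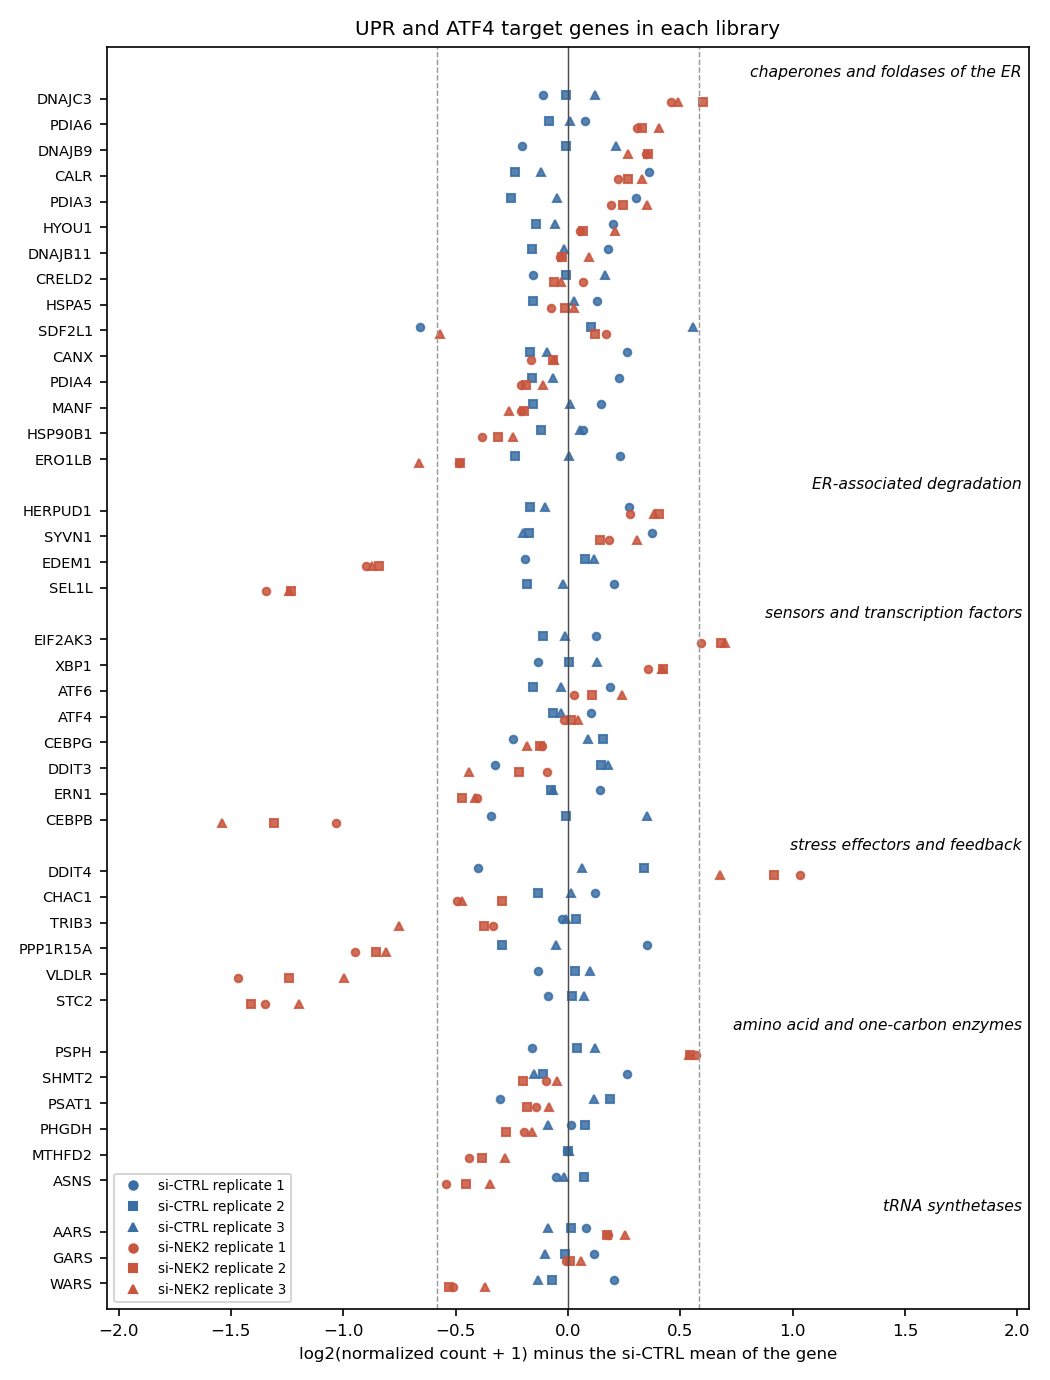
Each of the 42 members by role, with log2(normalized count + 1) minus the mean of the 3 si-CTRL libraries on the x axis, for si-CTRL (blue) and si-NEK2 (red) replicates 1 (circles), 2 (squares) and 3 (triangles). Dashed lines mark a 1.5-fold change, which the group means of 8 members passed, and SDF2L1 had the widest spread among si-CTRL libraries.

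The 3 sensors went different ways. EIF2AK3, the kinase PERK (GSHG0017796, chromosome 2 from 88856258 to 88927094, hg19), stood at 4701, 3993 and 4268 normalized counts in the si-CTRL libraries and at 6492, 6912 and 6989 in the si-NEK2 libraries, in the order of their replicate numbers, which holds for all values given in this way. Every si-NEK2 library was above every si-CTRL library. The mean rose from 4321 ± 357 (SD, n = 3) to 6798 ± 268 (SD, n = 3), which is 1.58-fold on the log scale (log2 fold change 0.66, standard error 0.08, adjusted p = 0.000249), and it was the only sensor called regulated. Its value fell short of a 1.5-fold change (0.58 on the log2 scale) with equal totals, at 0.53, and with quantile normalization, at 0.57, while the adjusted p stayed under 0.05 in both. ERN1, the kinase and endonuclease IRE1 (chromosome 17 from 62120353 to 62207528), had 624, 536 and 538 against 426, 407 and 424 normalized counts. It fell without overlap between the groups (log2 fold change -0.43, standard error 0.10, adjusted p = 0.00732). ATF6, the sensor that becomes a transcription factor itself, had 5478, 4310 and 4702 against 4901, 5168 and 5686 normalized counts. These ranges overlap, and its log2 fold change of 0.13 did not pass (95% confidence interval -0.10 to 0.35, adjusted p = 0.342). Without si-CTRL replicate 1, its highest control library, the value was 0.22 with an adjusted p of 0.0267.

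Among the transcription factors, XBP1 and ATF4 sit at the head of the ERN1 and EIF2AK3 branches. XBP1 had 12342, 13579 and 14781 normalized counts in si-CTRL and 17294, 18143 and 18084 in si-NEK2 libraries. It rose without overlap (log2 fold change 0.40, standard error 0.08, adjusted p = 0.00304). A value per gene does not part the spliced from the unspliced form of XBP1, so that ERN1 activity cannot be read from it. ATF4 had 29457, 26201 and 26885 against 27106, 27761 and 28304 normalized counts. The ranges overlap and the means lie close together, with a log2 fold change of 0.01 (95% confidence interval -0.14 to 0.16, adjusted p = 0.896). ATF4 is controlled largely by translation, which this assay does not measure.

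DDIT3 (CHOP), a pro-apoptotic factor induced in prolonged ER stress, was the lowest member, with 140, 195 and 199 against 164, 151 and 129 normalized counts. Its log2 fold change of -0.25 did not pass (95% confidence interval -0.64 to 0.14, adjusted p = 0.278), although without si-CTRL replicate 1 it was -0.41 with an adjusted p of 0.0437. CEBPB, a bZIP partner of ATF4 and also a factor of inflammatory and differentiation genes (GSHG0086568, chromosome 20 from 48807120 to 48809227, hg19), had 1302, 1642 and 2105 against 806, 666 and 567 normalized counts. Each si-NEK2 library was below each si-CTRL library, although the si-CTRL libraries varied by 23.9% (coefficient of variation). The mean fell from 1683 ± 403 to 679.6 ± 120 (SD, n = 3 each), so that 40.4% remained (log2 fold change -1.29, standard error 0.18, adjusted p = 0.00064). CEBPG, the other C/EBP family partner of ATF4, had a log2 fold change of -0.14 (adjusted p = 0.303), and of -0.26 without si-CTRL replicate 1 (adjusted p = 0.00156).

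None of the 15 chaperones and foldases was called regulated, and their levels ran from that of ERO1LB, the lowest, to that of HSP90B1. Of the 15 members 3 rose and 2 fell, and the median log2 fold change was -0.01. This share of 33.3% is below the 43.1% of all genes tested and the 51.6% of those at the members' level. HSPA5 (BiP, also GRP78), the ER HSP70 chaperone that is the usual readout of the UPR, had 164952, 135727 and 153856 against 143168, 149475 and 153799 normalized counts. The si-NEK2 libraries lay within the si-CTRL range. Its log2 fold change was -0.02, and the 95% confidence interval from -0.21 to 0.17 does not reach a 1.5-fold change, which is 0.58 on this scale (adjusted p = 0.854). HSP90B1 (GRP94), the HSP90 chaperone of the ER, whose pair of ERSE is shown above, fell from 177036 ± 12466 to 142289 ± 6867 normalized counts (SD, n = 3 each). Its libraries did not overlap, at 162664 or more in si-CTRL and 149108 or less in si-NEK2 (log2 fold change -0.31, standard error 0.08, adjusted p = 0.00994).

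Cochaperones of HSPA5 differed among themselves. DNAJC3 (p58IPK), which also inhibits EIF2AK3, had 1986, 2135 and 2331 against 2948, 3253 and 3010 normalized counts. It rose without overlap (log2 fold change 0.52, standard error 0.08, adjusted p = 0.00118), the largest change among the 15 chaperones and foldases apart from that of ERO1LB. DNAJB9 (ERdj4), which binds ERN1, rose from 5614 ± 815 to 6978 ± 229 normalized counts (SD, n = 3 each), with an adjusted p of 0.0296. It was lost in 9 of 17 alternative fits, which are those without si-CTRL replicate 2 or any single si-NEK2 library, the 3 other scalings, no trend and the replicate block (0.0542 to 0.15). DNAJB11 (ERdj3) had a log2 fold change of 0.01. The exchange factor HYOU1 stood at 0.11, and reached an adjusted p of 0.0126 only without si-CTRL replicate 1, at 0.21.

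Of the disulfide isomerases, PDIA6 had 34678, 31006 and 33150 against 40701, 41302 and 43602 normalized counts. It rose without overlap (log2 fold change 0.35, standard error 0.07, adjusted p = 0.00311). PDIA3, which works with the lectin chaperones, and the lectin chaperone CALR had log2 fold changes of 0.26 and 0.27 and did not pass (adjusted p = 0.132 and 0.144). Their si-CTRL libraries varied by 20.0% and 23.0%, with replicate 1 the highest in each. Without that library the values were 0.41 and 0.45, with adjusted p of 0.000961 and 0.000134. PDIA4 and CANX, the membrane-bound lectin chaperone, stood at -0.17 and -0.10 and did not pass (adjusted p = 0.198 and 0.502). With equal totals and with quantile normalization PDIA4 stood at -0.30 and -0.32 and did pass (adjusted p = 0.0353 and 0.05).

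ERO1LB, an oxidase that recharges disulfide isomerases, had 817, 591 and 698 against 497, 499 and 440 normalized counts. It fell without overlap (log2 fold change -0.54, standard error 0.13, adjusted p = 0.00877). The ER stress proteins MANF and CRELD2 stood at -0.22 and -0.01 (adjusted p = 0.0546 for MANF, whose groups did not overlap). The call of MANF turned on the fit, since it passed in 7 of 17 alternatives (0.00698 to 0.0492), which are the 3 other scalings, edgeR, DESeq2, a mean of at least 50 and the fit without si-CTRL replicate 2. SDF2L1, an ER chaperone component, was the most variable member, with 1080, 1829 and 2506 against 1918, 1853 and 1149 normalized counts. Its coefficient of variation was 39.5% in si-CTRL and 26.0% in si-NEK2 libraries, so that these data fix its change poorly (95% confidence interval -0.76 to 0.58 on the log2 scale).

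The 4 ERAD factors held 2 of the larger decreases. SEL1L, the adaptor that stabilizes and feeds substrates to the ubiquitin ligase SYVN1 (GSHG0009530, chromosome 14 from 81937892 to 82000205, hg19), had 4558, 3479 and 3893 against 1555, 1682 and 1670 normalized counts. The groups lay far apart. Its mean fell from 3977 ± 544 to 1635 ± 70.1 (SD, n = 3 each) and 41.1% remained (log2 fold change -1.27, standard error 0.10, adjusted p = 3.79e-05). EDEM1, which helps to pick misfolded glycoproteins for ERAD (GSHG0020550, chromosome 3 from 5229331 to 5261650, hg19), had 6074, 7322 and 7517 against 3719, 3878 and 3790 normalized counts. It fell from 6971 ± 783 to 3795 ± 79.9 (SD, n = 3 each), so that 54.4% remained (log2 fold change -0.87, standard error 0.09, adjusted p = 0.000119).

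The other ERAD members did not follow SEL1L. SYVN1 (HRD1), the ligase itself, had 2538, 1739 and 1708 against 2225, 2164 and 2424 normalized counts. Only si-CTRL replicate 1 was above the si-NEK2 libraries (log2 fold change 0.21, adjusted p = 0.276), and without it the value was 0.40 with an adjusted p of 0.000825. HERPUD1, a membrane scaffold of the same complex whose promoter holds the ERSE-II and CARE shown above, had 5930, 4378 and 4576 against 5962, 6515 and 6409 normalized counts. It rose by 0.36 on the log2 scale, but its adjusted p of 0.0304 was lost in 10 of 17 alternative fits (0.0557 to 0.13), which are the 3 other scalings, no trend, the replicate block, and those that left out si-CTRL replicate 2 or 3 or any single si-NEK2 library.

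All 6 stress effectors and feedback genes changed, 5 of them downward, and their median log2 fold change was -0.68. For comparison, 43.1% of all genes tested passed (21.3% lower), and 51.6% of those at the members' level (22.6% lower). STC2, a secreted glycoprotein hormone induced by ATF4 (GSHG0025271, chromosome 5 from 172741726 to 172756507, hg19), had 4034, 4336 and 4510 against 1683, 1610 and 1868 normalized counts. This was the largest decrease of the 42 members. The mean fell from 4294 ± 241 to 1720 ± 133 (SD, n = 3 each), so that 40.1% remained (log2 fold change -1.32, standard error 0.08, adjusted p = 1.16e-05). VLDLR, a lipoprotein receptor (GSHG0029987, chromosome 9 from 2621774 to 2656103, hg19), had 575, 644 and 675 against 227, 266 and 315 normalized counts. It fell to 42.6% of its si-CTRL mean (log2 fold change -1.24, standard error 0.14, adjusted p = 0.000181).

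PPP1R15A (GADD34), the stress-induced subunit that directs dephosphorylation of eIF2alpha (GSHG0015079, chromosome 19 from 49375649 to 49379318, hg19), had 11798, 7550 and 8910 against 4795, 5116 and 5277 normalized counts. It fell to 53.7% of its si-CTRL mean, and the si-CTRL libraries varied by 23.0% (log2 fold change -0.87, standard error 0.14, adjusted p = 0.00134). TRIB3, a pseudokinase that restrains ATF4 and AKT, fell from 894.9 ± 20.7 to 643.4 ± 98.4 normalized counts (SD, n = 3 each, log2 fold change -0.49, adjusted p = 0.0101). CHAC1, which degrades glutathione and whose CARE is shown above, fell by 0.42 on the log2 scale (adjusted p = 0.0112). DDIT4 (REDD1), an inhibitor of mTORC1 that responds to hypoxia and glucocorticoids as well as to ATF4 (GSHG0003441, chromosome 10 from 74033677 to 74035797, hg19), had 2081, 3476 and 2873 against 5629, 5187 and 4393 normalized counts. It went the other way without overlap, and the mean rose 1.83-fold on the log scale, from 2810 ± 700 to 5070 ± 626 (SD, n = 3 each, log2 fold change 0.87, standard error 0.17, adjusted p = 0.00366).

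**Figure D2:**
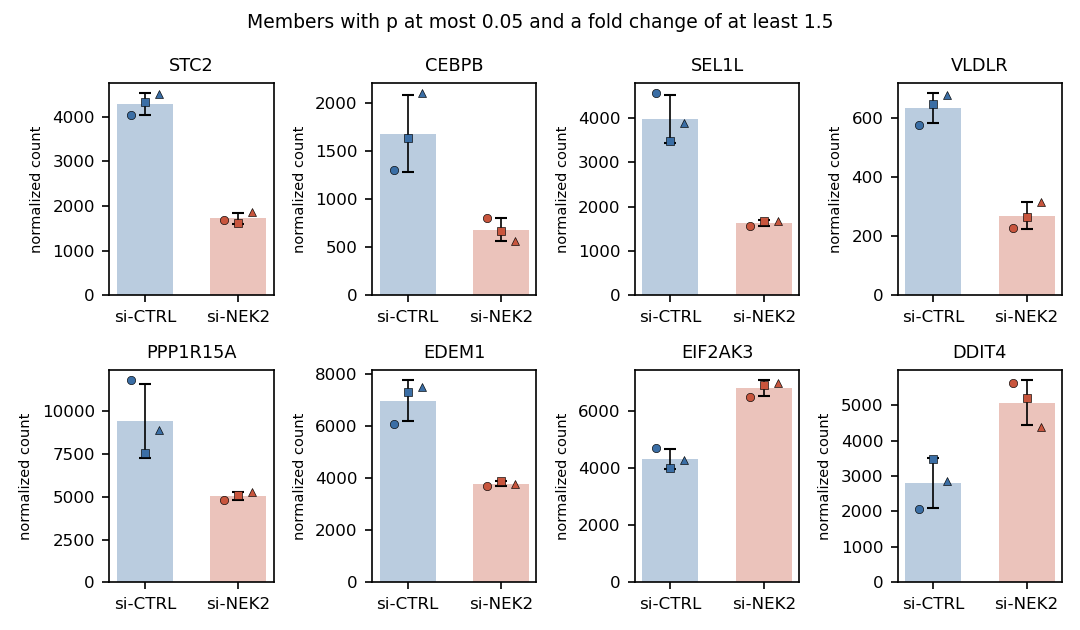
Normalized counts of the 8 regulated members in each library, with bars for the group means, error bars for the SD (n = 3) and symbols for replicates 1 (circles), 2 (squares) and 3 (triangles). STC2, CEBPB, SEL1L, VLDLR, PPP1R15A and EDEM1 are lower and EIF2AK3 and DDIT4 are higher in every si-NEK2 library than in any si-CTRL library.

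Enzymes of amino acid and one-carbon metabolism changed by less than 1.5-fold. Of 6 members 3 fell and 1 rose. This share of 66.7% stands beside 43.1% of all genes tested and 51.6% of those at the members' level. ASNS, which makes asparagine and has the CARE shown above, had 5980, 6525 and 6137 against 4258, 4538 and 4880 normalized counts. It fell without overlap (log2 fold change -0.45, standard error 0.07, adjusted p = 0.00138). MTHFD2, the mitochondrial folate enzyme, had 10592, 10627 and 10655 against 7833, 8151 and 8741 normalized counts. Its si-CTRL libraries were closer together than those of any other member, at a coefficient of variation of 0.295%, and it fell by 0.37 on the log2 scale (standard error 0.06, adjusted p = 0.00182).

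The 3 steps of serine synthesis did not move together. PHGDH, the first enzyme, fell from 8865 ± 506 to 7655 ± 306 normalized counts (SD, n = 3 each), and its adjusted p of 0.034 was lost in 7 of 17 alternative fits (0.0571 to 0.148), among them those without si-CTRL replicate 2 or any single si-NEK2 library. PSAT1, the second, had a log2 fold change of -0.14 (adjusted p = 0.382), which was -0.29 with an adjusted p of 0.00101 without si-CTRL replicate 1. PSPH, the last, had 987, 1136 and 1202 against 1642, 1608 and 1603 normalized counts. It rose without overlap (log2 fold change 0.55, standard error 0.09, adjusted p = 0.00131), but the genome holds a near-identical copy, so that the split of its reads is uncertain. SHMT2, which passes the serine carbon to mitochondrial folate, stood at -0.12 (adjusted p = 0.423).

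The 3 tRNA synthetases among the members gave 1 change in each direction. This share of 66.7% stands beside 43.1% of all genes tested and 51.6% of those at the members' level. AARS, whose CARE is shown above, had 43745, 41761 and 38924 against 46799, 46683 and 49446 normalized counts. It rose by 0.20 on the log2 scale, and its adjusted p of 0.0372 was lost in 11 of 17 alternative fits (0.0745 to 0.773), among them the 3 other scalings and those that left out si-CTRL replicate 2 or 3 or any single si-NEK2 library. WARS, which is induced by interferon as well, had 4273, 3527 and 3384 against 2599, 2568 and 2871 normalized counts. It fell without overlap (log2 fold change -0.47, standard error 0.10, adjusted p = 0.00488). GARS had a log2 fold change of 0.02 (adjusted p = 0.849).

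Directions were compared among members that share a promoter element. Of the 8 with an ERSE, XBP1 and PDIA6 rose, HSP90B1 and ERO1LB fell, and HSPA5, CALR, CANX and CRELD2 did not pass. Among the 5 with a CARE, HERPUD1 and AARS rose, ASNS and CHAC1 fell, and CEBPG did not pass. Of all genes tested 43.1% passed, and 51.6% of those at the members' level, so that such small counts say little about an element. HERPUD1 and AARS, the CARE members that rose, lost that call in 10 and 11 of 17 alternative fits, whereas ASNS and CHAC1 kept theirs in all of them. In the promoters the first base of the ERSE lay 66 bases before the annotated start in HSPA5, 52 in XBP1, 86 in PDIA6 and 243 in ERO1LB, whereas HSP90B1 held it at 194 and at 89 bases.

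**Figure D3:**
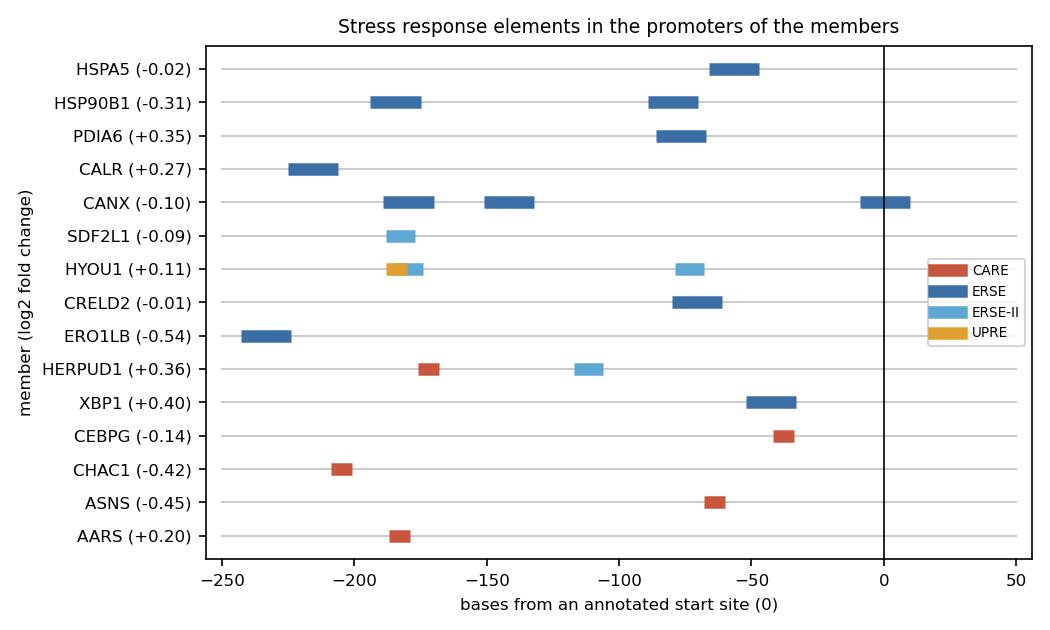
Position of ERSE, ERSE-II, the short XBP1 element (UPRE) and CARE in the RefSeq promoters of the members that hold any of them, in bases from an annotated start (0, vertical line), with the log2 fold change of each gene in brackets. CANX has 3 annotated starts, so that 1 element appears at 3 distances, and genes with the same element show both higher and lower values as scaled by the authors.

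Other genes of the pathway were read from lists of textbook members. For comparison, 43.1% of all genes tested passed (21.8% higher, 21.3% lower). Among genes at the members' level 51.6% passed (29.0% higher, 22.6% lower). The median log2 fold changes of these 2 sets were 0.01 and 0.06. Of 48 other genes of ER folding, translocation and ERAD 17 rose and 6 fell (47.9% in all), and the median log2 fold change was 0.14. This excess depended on the scaling, since the counts were 13 and 9 with upper quartile scaling, 10 and 12 with equal totals (median 0.01) and 8 and 10 with quantile normalization. Among those that rose were SEC61G, a subunit of the ER translocon (0.85), KDELR3, which returns ER proteins from the Golgi (0.85), and VCP, the ATPase that extracts ERAD substrates (0.61). DNAJC10, an ER reductase that acts in ERAD, fell by 1.07 on the log2 scale from 21566 ± 995 to 10291 ± 648 normalized counts (SD, n = 3 each, adjusted p = 1.6e-05). DERL3, a channel component related to DERL1, fell by 0.76. As among the members, ERAD genes were thus found on both sides.

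The other targets of ATF4 showed more decreases than increases. Of 38 tested 21 fell and 8 rose, with a median of -0.39. This share of 76.3% stands beside 43.1% of all genes tested and 51.6% of those at the members' level. Of the 15 ATF4 targets among the members 3 rose and 9 fell (80% in all). With equal totals 25 of the 38 fell and 6 rose. LAMP3 was too low to test, with at most 2 reads in a library, and ATF5 was not matched. INHBE, an activin subunit, fell from a mean of 134.8 to 46.7 normalized counts (log2 fold change -1.51, standard error 0.18). GDF15, a stress hormone, fell by 1.30, from 405.2 ± 22.9 to 167.4 ± 39.9 normalized counts (SD, n = 3 each). The angiogenic factor VEGFA fell by 0.96 and the bZIP repressor JDP2 fell by 0.95. EIF4EBP1, which restrains cap-dependent translation, fell by 0.75. CTH, which makes cysteine from cystathionine, rose from 245.0 ± 23.1 to 643.0 ± 24.1 normalized counts (SD, n = 3 each), a log2 fold change of 1.39.

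Genes of the eIF2alpha step outside the members changed by less than 1.5-fold. Apart from EIF2AK3, DNAJC3 and PPP1R15A, which are members, 5 of 13 rose and 1 fell (46.2% in all), and 3 rose and 2 fell with equal totals. The shares given here stand beside 43.1% of all genes tested and 51.6% of those at the members' level. Of 8 tRNA synthetases outside the ATF4 lists 2 rose and 3 fell (62.5% in all, median -0.03). Folate enzymes outside these lists gave 1 that rose and 5 that fell of 10 (60% in all, median -0.24). SHMT1, the cytosolic partner of SHMT2, stood at 0.75 and MTHFD2L, a relative of MTHFD2, at -0.62.

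Among lists of other responses that some members also answer to, those of hypoxia and interferon were mixed, and heat shock genes mostly rose. Their shares stand beside 43.1% of all genes tested and 51.6% of those at the members' level. Of 12 hypoxia genes 5 rose and 2 fell (58.3% in all, median 0.19), and 2 rose and 3 fell with equal totals. EGLN3 stood at 1.20 and LOX at -1.16. Interferon genes gave 2 that rose and 4 that fell of 10 tested (60% in all, median -0.19). GBP2 stood at 1.05, MX1 at -1.07 and GBP1 at -0.69. Heat shock genes, the counterpart of the UPR outside the ER, gave 8 that rose and 1 that fell of 13 (69.2% in all, median 0.36). With equal totals 7 rose and 1 fell. Beside cytosolic chaperones this list holds the mitochondrial HSPD1 and HSPE1 and the transcription factor HSF1, and the row of HSPE1 is shared with MOB4. HSP90AA1, the cytosolic relative of HSP90B1, rose from 220305 ± 12259 to 335923 ± 10508 normalized counts (SD, n = 3 each, log2 fold change 0.61), whereas HSP90B1 fell. The plot of the lists gives all of these genes. Whether hypoxia, interferon or heat shock had a part in the members' values was not tested.

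**Figure D4:**
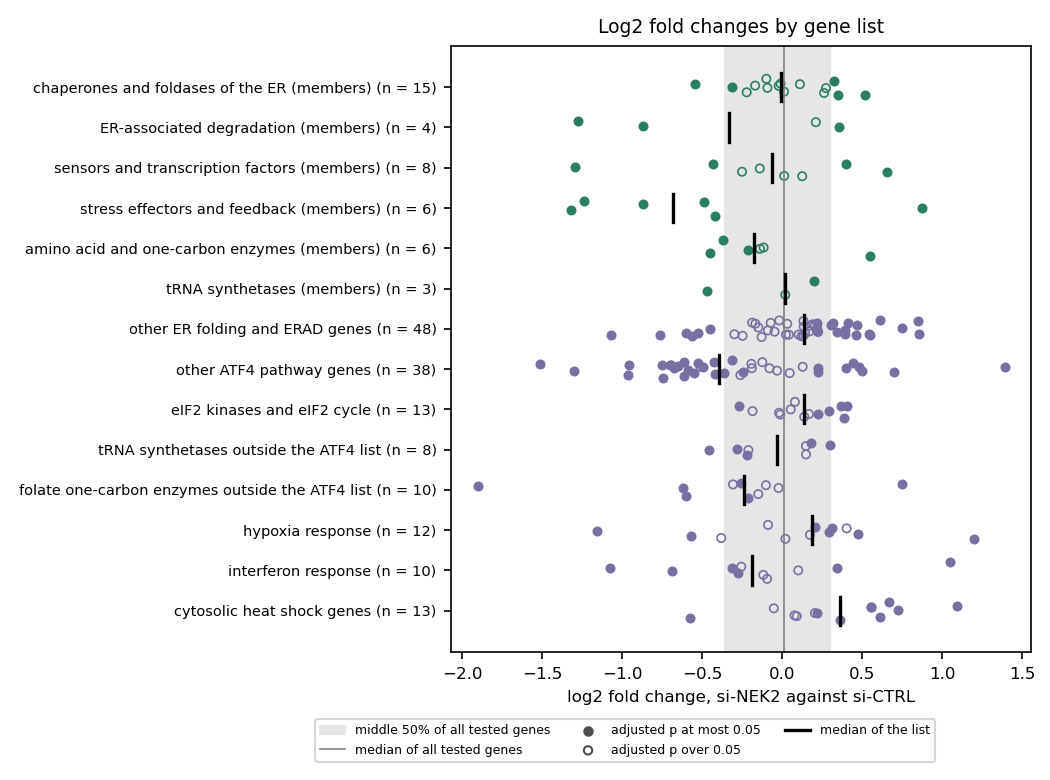
Log2 fold change (si-NEK2 minus si-CTRL) of each gene in the branches of the members and in the other lists, with filled points for genes at an adjusted p of at most 0.05, open points for the others, a bar for the median of the list, a grey line for the median of all genes tested and a grey band for their interquartile range. The other ATF4 pathway genes lie mostly below 0 (median -0.39), while chaperones and foldases of the ER lie around 0 (median -0.01). Genes of the list labelled cytosolic heat shock, which also holds HSPD1, HSPE1 and HSF1, lie mostly above 0 (median 0.36).

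Spread between libraries was unequal. The median coefficient of variation of the members was 11.6% in si-CTRL and 4.78% in si-NEK2 libraries, and it was larger in si-CTRL for 37 of 42 members. Replicate 1 of si-CTRL was the highest of its group for 24 members and the lowest for 17, and so lay between the other libraries for 1. When it was left out, 14 members rose and 18 fell. Calls also became more frequent over all 18717 genes tested, with 4996 higher and 4344 lower in place of 4082 and 3981. The members gained were PDIA3, CALR, HYOU1, SYVN1 and ATF6, which were higher, and DDIT3, CEBPG and PSAT1, which were lower. The part that this library has in the other values was not tested.

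Several members share their place with another gene, and the handling of strand in the counting is not given in the sources used here. PPP1R15A lies wholly within the span that the table gives to FTL, the ferritin light chain gene, whose mean was 153446 normalized counts and whose log2 fold change was 0.23 (adjusted p = 0.149). CEBPB shares 70.5% of its span with the antisense gene CEBPB-AS1 (mean 74.2 normalized counts, log2 fold change -1.15, adjusted p = 0.00836). DDIT3 shares 25.0% of its span with MARS, at a mean of 16529 normalized counts, and MTHFD2 22.1% of its span with DCTN1. SHMT2 lies within the span given to STAT6. In all, 17 members overlap a gene above the filter, 10 of them one with more than 5% of the member's own level, and 6 of these 10 had an adjusted p of at most 0.05. A change in the number of cells that express a gene and a change in RNA per cell cannot be told apart in bulk RNA.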

How the data were processed

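MDA-MB-231 polyA RNA was sequenced from TruSeq stranded libraries (3 si-CTRL, 3 si-NEK2). The submitters' processing notes name FastQC, STAR 2.4.0, SAMtools, Picard, DESeq2 and hg19, and the methods name FAST DB annotation. The counter is not given in the sources used here. The authors deposited a signal per gene and library, which is reads divided by a DESeq2 size factor, replicates not pooled. All deposited values (100%) were whole multiples of 1 read within a tolerance, which gave back the reads. The tolerance was 0.01 for low values and widened with the reads, so that the check could not fail for the highest values. Intervals cover the spread between libraries only. No column of another sample was present (0).

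Genes whose mean reached 10 normalized counts were tested with limma 3.58.1 (eBayes with trend, R 4.3.3) on log2(value + 1), Benjamini-Hochberg over 18717 genes. This scale understates changes of low genes. The thresholds, a 1.5-fold change and an unadjusted p-value of 0.05, were those of the study. The members, lists and tests were chosen with earlier results of these data known. All members are given; of other lists, up to 6 genes by absolute log2 fold change among those with a 1.5-fold change, a mean of 50 or more and an adjusted p of 0.05 or less, of which HSPA1A, HSPA1B (near-identical copies) and HSPH1 are given in the plot only, and some others are not reported here. Alternatives were other pseudocounts, filters, scalings and thresholds, no trend, a replicate block, leaving out each library, and edgeR 4.0.16 and DESeq2 1.42.0 on the recovered reads. On these reads edgeR called 4205 genes regulated. Residuals of libraries with the same number correlated at -0.09, 0.05 and -0.15, so that the numbers were not taken to pair samples. The fits were tested on simulated data. Promoters were read from RefSeq (GRCh38.p14) and are not in the hg19 coordinates of the table. A planned list of proteins with an ER retrieval signal was not run.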

Additional observations from a re-analysis of the deposited data

How the results depend on the processing

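Of the 24 members with an adjusted p of at most 0.05, 19 (5 higher, 14 lower) kept it in all 17 alternative fits; DNAJB9, HERPUD1, AARS, PHGDH and, with quantile normalization only, PDIA6 (0.0535) did not. No such member turned direction in any of them. Members with an adjusted p of at most 0.05 that were higher, 9 as reported, came to 5 with quantile normalization and to between 6 and 14 with 1 library left out, the 14 without si-CTRL replicate 1. Lower members ranged from 14 to 18, and both together from 20 to 32. Over all genes tested such calls ranged from 5904 without si-NEK2 replicate 2 to 9340 without si-CTRL replicate 1. Regulated members that were higher, 2 as reported, came to 1 with equal totals and to 1 with quantile normalization, both without EIF2AK3. They came to 3 without si-CTRL replicate 3. At a fold change of at least 2 they came to 0, with 4 regulated members in all. Regulated members that were lower, 6 as reported, came to 9 with equal totals. With upper quartile scaling and without si-CTRL replicate 2 they came to 7. Genes of the other lists were 48 that rose and 43 that fell as reported, 36 and 54 with upper quartile scaling, 30 and 60 with equal totals and 31 and 54 with quantile normalization, so that the balance turned. Upper quartile scaling and equal totals move all genes by construction. Quantile normalization did not move all genes alike. With it the median of all genes went from 0.012 to 0.046, and that of the members from -0.107 to -0.160. The replicate block gave 6 higher and 14 lower members (20 in place of 24), without AARS, DNAJB9, HERPUD1 and PHGDH, although the numbers were not shown to pair the libraries. The signs of 10 members that did not pass were not fixed. ATF4 stood at -0.053 with upper quartile scaling, -0.12 with equal totals, -0.13 with quantile normalization and -0.00040 with DESeq2, and between -0.022 and 0.063 with 1 library left out. In the same order DNAJB11 stood at -0.055, -0.12 and -0.15, at -0.0044 with edgeR, at -0.0055 with DESeq2 and between -0.068 and 0.10. GARS stood at -0.047, -0.11 and -0.14 and between -0.033 and 0.077. HYOU1 was at -0.018 with equal totals and -0.032 with quantile normalization, and ATF6 at -0.0031 with equal totals. With 1 library left out HSPA5 lay between -0.099 and 0.042, CANX between -0.18 and 0.032, SDF2L1 between -0.42 and 0.19, CRELD2 between -0.088 and 0.071 and SHMT2 between -0.19 and 0.015. With 3 libraries per group, changes of variable members such as SDF2L1 and DDIT3 are poorly fixed whatever their depth.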

Other observations

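Genes outside the members whose RefSeq promoters hold the same elements were read as a description. Of 8 tested with an ERSE 3 rose and 0 fell (limma, adjusted p of at most 0.05), with a median log2 fold change of 0.04. Of 12 tested with an ERSE-II 3 rose and 4 fell, with a median of 0.08. Of 135 tested with the short XBP1 element 53 rose and 26 fell, with a median of 0.14. Among 304 tested with a CARE 65 rose and 92 fell, with a median of -0.05. The medians to compare were 0.01 over all genes tested and 0.06 over those at the members' level. The shares that passed were 37.5% with an ERSE, 58.3% with an ERSE-II, 58.5% with the short XBP1 element and 51.6% with a CARE. They stand beside 43.1% of all genes tested (21.8% higher, 21.3% lower) and 51.6% of those at the members' level (29.0% higher, 22.6% lower). These counts are given as scaled by the authors only, and the balance of the other lists turned with the scaling. The marker CD44 fell from 54108 ± 12921 to 31464 ± 2103 normalized counts (SD, n = 3 each, log2 fold change -0.76, adjusted p = 0.00332).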
